A study of Mus musculus with 13 samples.

Results

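Bola3, Ciao2a, Cisd2 and mt-Nd4 are 4 mRNAs that serve iron-sulfur clusters or mitochondrial respiration, and they were followed here through RNA immunoprecipitation (IP) of P23, a co-chaperone of HSP90 encoded by Ptges3. They were taken by Ensembl gene identifier from a table of 52 RNAs. Bola3, Ciao2a and Cisd2 are transcribed in the nucleus (3 mRNAs) and mt-Nd4 in the mitochondrion (1 mRNA). Cytoplasmic extracts came from UV-crosslinked RAW 264.7 cells, an established mouse macrophage line. The libraries are 3 P23 IPs and 2 LUC IPs of cells given 10 ng/ml LPS for 2 h, 3 each of P23 and LUC IPs from untreated cells (0 h), and 1 input library at each time. LUC is a luciferase antibody that served as the control. The authors set aside 1 further LUC IP library of 2 h as an outlier. The sample labels and the methods name different P23 antibody products for these IPs, and whether they are the same clone was not settled here. Every RNA of the table had been picked by the study because it was higher with P23 than with LUC at 0 h in these same libraries. Differences between P23 and LUC at 0 h are therefore a description only, and the selection favours smaller differences at 2 h. It also favours a fall with LPS in the P23 IPs and a rise in the LUC IPs.

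Iron-sulfur clusters are cofactors built on scaffold proteins in the mitochondrial matrix and passed on to recipient enzymes, among them respiratory complexes I, II and III. BOLA3 works in the mitochondrion at the late step, in which clusters are handed to recipients such as the lipoic acid synthase. CIAO2A, listed in the study under its older name Fam96a, belongs to the cytosolic assembly machinery and acts in the maturation of iron regulatory protein IRP1. CISD2 is an iron-sulfur protein of the endoplasmic reticulum and outer mitochondrial membrane with a role in calcium handling and autophagy. ND4 is a core membrane subunit of complex I, and its mRNA is made and translated inside the mitochondrion. LPS, a component of the outer membrane of Gram-negative bacteria, activates macrophages and shifts their energy metabolism towards glycolysis.

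In GRCm38, Bola3 (ENSMUSG00000045160) lies on the forward strand of chromosome 6 from 83349147 to 83360136. Ciao2a (ENSMUSG00000032381) is on the forward strand of chromosome 9 from 66126611 to 66138955. Cisd2 (ENSMUSG00000028165) is on the reverse strand of chromosome 3 from 135406412 to 135423925. On the mitochondrial genome mt-Nd4 (ENSMUSG00000064363) spans 10167 to 11544 and shares 7 nt with mt-Nd4l on the same strand, the only exon overlap found for the 4 genes. Because reads were counted where they mapped uniquely, near copies elsewhere in the genome matter. A stretch of 876 nt on chromosome 1 is 100% identical to mt-Nd4 and covers 63.6% of it, so many of its reads may have gone uncounted in every library. For Ciao2a 30 stretches on 13 chromosomes matched at 90% identity or more and covered 88.5% of the mRNA, but 0 of them reached 98%. Matches of 100 nt or more covered 23.3% of Bola3 mRNA and 4.57% of Cisd2 mRNA.

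The study found a U/G-rich motif in the 3′UTRs of most of its P23-bound mRNAs and tested P23 on that of Kif15. Here the 30-nt stretch richest in hexamers made of U and G only is shown for Bola3, Cisd2 and mt-Nd4, with those hexamers in capitals. This is another measure than the motif of the study. A stretch of 30 nt holds at most 25 hexamers. The first 2 come from the 3′UTR and the last from the coding sequence of mt-Nd4, all read 5′ to 3′ on the mRNA from RefSeq and GRCm38.
Bola3: ggccagaGUUUUGGUUGGUUUUGcUUUUUG
Cisd2: uaUGUGUGUGUGaguaUGUGUGUGUGUGUG
mt-Nd4: cuucaugaucuaacaacuuacuaUGGUUGG
The stretches lie at 83358499 to 83358528 on chromosome 6 for Bola3, 135408123 to 135408152 on chromosome 3 for Cisd2, and 10729 to 10758 on the mitochondrial genome for mt-Nd4. Bola3 had 12 such hexamers in its stretch, Cisd2 14 and mt-Nd4 2. The Cisd2 stretch is a UG repeat. Over 19272 mouse 3′UTRs the densest stretch held a median of 7. Stretches at least as dense occurred in 26.3% of them for Bola3 and 20.3% for Cisd2. Among 3′UTRs within 20% of the same length these shares were 40.3% of 2511 for Bola3 (1924 nt) and 36% of 2239 for Cisd2 (2389 nt). The whole 3′UTRs held 35.3 U/G hexamers per 1000 nt in Bola3 and 38.9 in Cisd2, against a median of 28.8 in all 3′UTRs. The coding sequence of mt-Nd4 held 1.45 per 1000 nt. These values hold for the members shown and not for all 4. These counts describe the letters and say nothing of binding.

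Raw counts of the members in the IPs ran from 27 (Bola3) to 874 (mt-Nd4) reads. Below, a normalized count is a raw count divided by the library's size factor, which lay between 0.461 and 1.02 for IP libraries and was 5.65 for the 2 h input and 6.10 for the 0 h input. Differences among the 4 IP groups were tested in edgeR (quasi-likelihood), with p-values adjusted over all 52 RNAs and called at 0.05 or less. Standard errors were derived here from that test, as the log2 fold change without its sign over the square root of the F statistic. Groups of 2 or 3 libraries limit the precision of every value below. Counts summed over the table, which are not library sizes, lay between 3751 and 11866 for IP libraries, with 25437 for the 2 h input and 24335 for the 0 h input. Pim1, a kinase mRNA that LPS induces, was at 507 normalized counts in the 2 h input and 23.3 in the 0 h input. Of the fibroblast, B cell and T cell markers looked for, the table holds 0, and cell identity was not tested further.

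**Figure D1:**
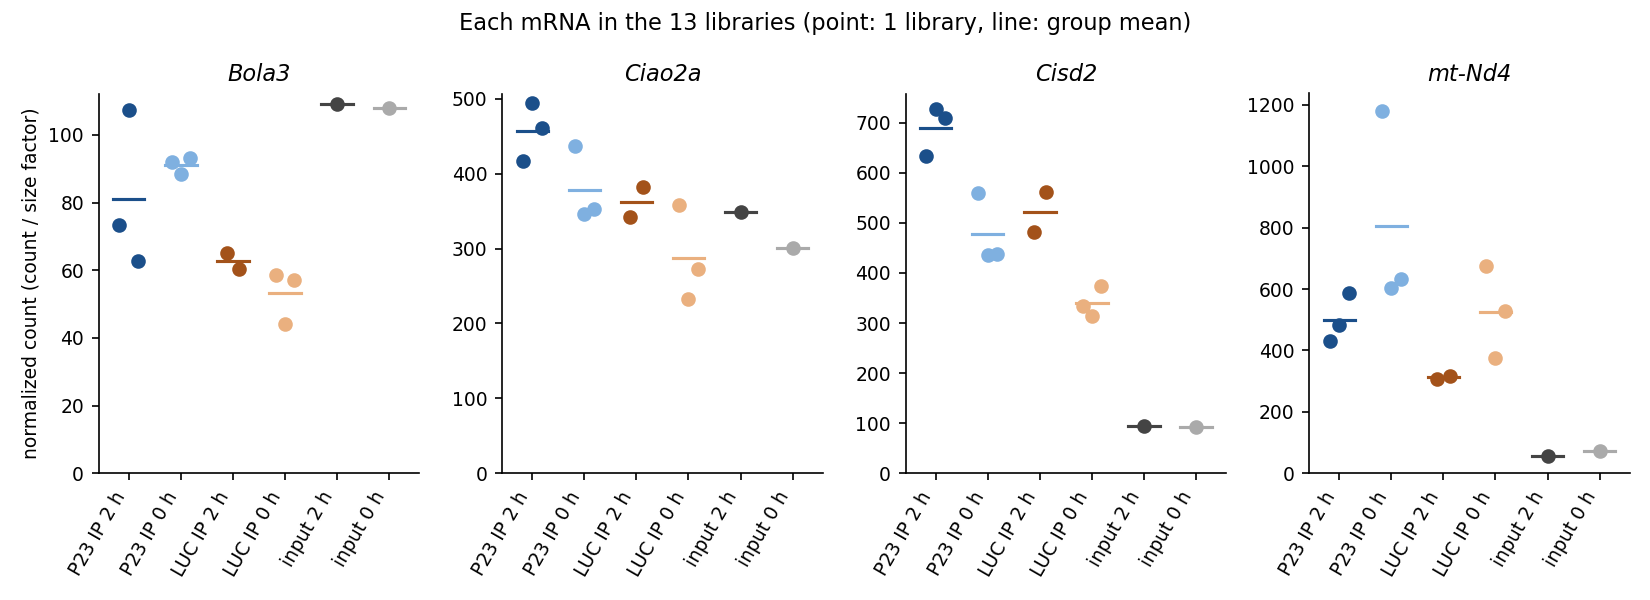
Normalized counts (raw count over size factor, linear axes from 0) of Bola3, Ciao2a, Cisd2 and mt-Nd4 in the 13 libraries, with 1 point per library and a line at the group mean. Cisd2 and mt-Nd4 sit far above both inputs in every IP library, while Bola3 lies below the inputs, and Cisd2 is higher and mt-Nd4 lower at 2 h than at 0 h with either antibody.

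After LPS all 4 mRNAs had higher means with P23 than with LUC, but none of the differences passed the test. Bola3, the cluster transfer factor, had 73.3, 107 and 62.7 normalized counts in the P23 IPs of 2 h and 65.1 and 60.3 in the LUC IPs of 2 h. Its P23 values were spread widely, and the lowest lay between both LUC values. Its log2 fold change was 0.38 (standard error, SE, 0.22, edgeR adjusted p = 0.20), and it was 0.12 without P23 2 h replicate 2. Ciao2a, the cytosolic assembly factor, had 417, 494 and 461 normalized counts in the P23 IPs of 2 h and 342 and 383 in the LUC IPs of 2 h. All P23 values were above both LUC values, with a log2 fold change of 0.34 (SE 0.19, edgeR adjusted p = 0.20).

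Cisd2 encodes an iron-sulfur protein of the endoplasmic reticulum and outer mitochondrial membrane. At 2 h it had 633, 727 and 709 normalized counts in the P23 IPs and 483 and 561 in the LUC IPs. The groups did not overlap, and the log2 fold change was 0.40 (SE 0.19, edgeR adjusted p = 0.10). The mitochondrial mRNA mt-Nd4 had 432, 482 and 588 normalized counts in the P23 IPs of 2 h and 307 and 318 in the LUC IPs of 2 h. Here too every P23 library was above both LUC libraries. The log2 fold change was 0.68 (SE 0.30, edgeR adjusted p = 0.099), the 8th highest of the 52 RNAs. With 2 groups alone in the fit mt-Nd4 passed (edgeR adjusted p = 0.016), and over 12 alternatives its adjusted p ran from 0.016 to 0.68. Kif15, the mRNA the study went on with, serves as a mark for size and had a log2 fold change of 3.23 (SE 0.30, edgeR adjusted p = 2.5e-07) at 2 h.

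Thus 0 of the 4 members were called higher with P23 at 2 h by edgeR, DESeq2 or limma, where edgeR called 4 of the 52 RNAs (7.69%) higher and 1 (1.92%) lower. At an unadjusted p under 0.05 there were 2 members, Cisd2 and mt-Nd4, among 23 RNAs that were higher. The groups did not overlap for 3 of the 4 members, but neither did they for 33 of all 52 RNAs (63.5%). The median log2 fold change was 0.39 over the members and 0.40 over all 52 RNAs. So at 2 h the nuclear members sat near the middle of the table and mt-Nd4 above it. These differences depend on the scale between libraries. When every library was given the same median over the 52 RNAs, a setting that takes out any difference most of them share, the 3 nuclear members had log2 fold changes between -0.08 and -0.01, while mt-Nd4 stayed above 0 at 0.27 (edgeR adjusted p = 0.68).

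At 0 h, the time of the selection, Bola3 had 91.8, 88.6 and 93.3 normalized counts in the P23 IPs and 58.6, 44.0 and 57.1 in the LUC IPs. Ciao2a had 436, 346 and 353 in the P23 IPs and 358, 233 and 272 in the LUC IPs. Cisd2 had 561, 437 and 437 in the P23 IPs and 334, 314 and 373 in the LUC IPs. Bola3 and Cisd2 did not overlap between the antibodies at 0 h, whereas Ciao2a did. For mt-Nd4 the P23 IPs had 1180.5, 603 and 632 normalized counts and the LUC IPs 675, 374 and 529.9. The groups overlapped, P23 replicate 1 stood far above the other two, and the LUC library of the same number was the highest of its group. The log2 fold changes were 0.78 for Bola3 (SE 0.19), 0.62 for mt-Nd4 (SE 0.25), 0.48 for Cisd2 (SE 0.17) and 0.41 for Ciao2a (SE 0.17). Ciao2a was the lowest of the 52 RNAs and Cisd2 the 46th, while Bola3 was the 18th. All 4 passed the threshold, as did 100% of the table, and for 42 of the 52 RNAs (80.8%) the groups did not overlap, from which nothing is read. With all libraries set to an equal median, Ciao2a was at -0.13, Cisd2 at -0.08, mt-Nd4 at 0.08 and Bola3 at 0.23 on the log2 scale. Without P23 0 h replicate 1 mt-Nd4 was at 0.24 and its call was lost (edgeR adjusted p = 0.26, with 0.0032 to 0.91 over 13 alternatives), as were those of Ciao2a and Cisd2. Without LUC 0 h replicate 2 or 3 the calls of Ciao2a and mt-Nd4 were lost as well.

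The change of the P23 over LUC difference between times was smaller than its standard error for 3 of the members, at a log2 value (2 h minus 0 h) of -0.07 for Ciao2a (SE 0.26), -0.08 for Cisd2 (SE 0.25) and 0.06 for mt-Nd4 (SE 0.39). Bola3 was at -0.40 (SE 0.29, edgeR adjusted p = 0.55), with -0.67 without P23 2 h replicate 2 and -0.24 without P23 2 h replicate 3. The adjusted p was 0.96 or more for the other 3 members in the same edgeR test. Of the 4 members 0 were called in either direction by edgeR, DESeq2 or limma, and 0 at an unadjusted p under 0.05. In the table edgeR called 0% higher and 1 RNA (1.92%) lower. The median change was -0.26 over all 52 RNAs and -0.08 over the members. The sign for Ciao2a and Cisd2 turned under other scales, and that for mt-Nd4 when single libraries were left out, while Bola3 did not pass in any setting, so no direction is read for any of the 4.

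**Figure D2:**
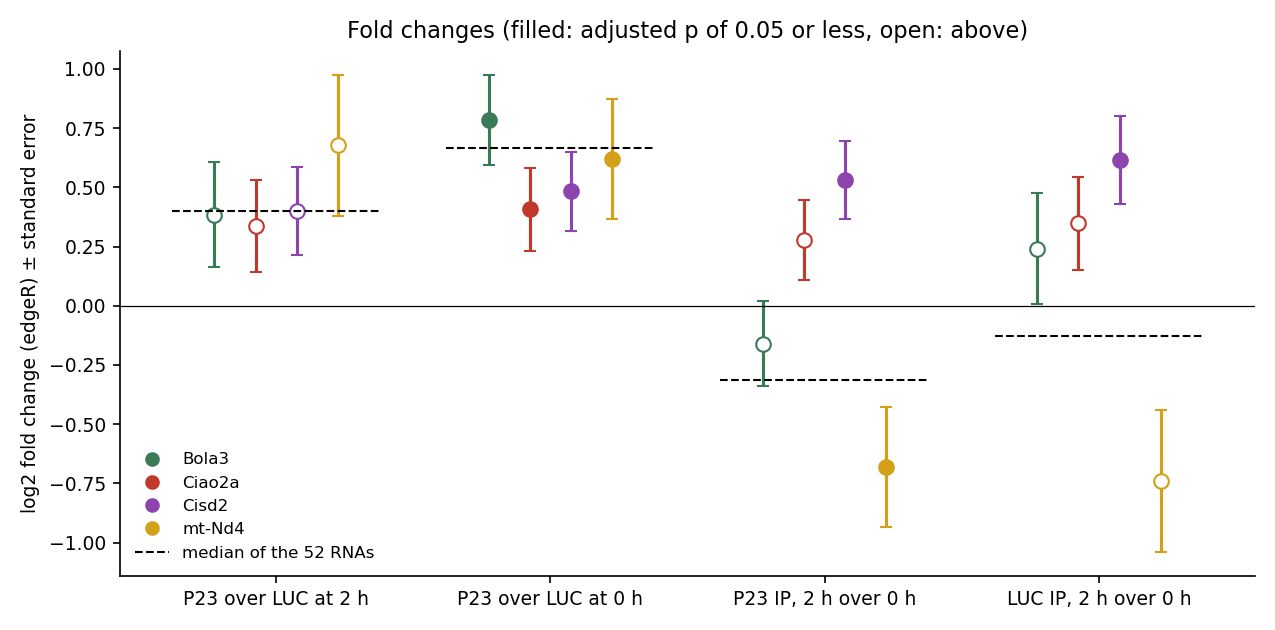
Log2 fold changes from edgeR with their standard errors for the 4 members in 4 comparisons, filled where the adjusted p was 0.05 or less, with the median of the 52 RNAs as a dashed line. In the P23 over LUC comparison at 2 h all members are above 0, the nuclear ones around the table's median and mt-Nd4 above it. In both comparisons of 2 h over 0 h Cisd2 and mt-Nd4 lie on opposite sides of 0.

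With LPS, Cisd2 rose in both IPs and mt-Nd4 fell in the P23 IPs. Cisd2 rose 1.45-fold in the P23 IPs (633, 727 and 709 normalized counts at 2 h against 561, 437 and 437 at 0 h) and 1.53-fold in the LUC IPs (483 and 561 at 2 h against 334, 314 and 373 at 0 h). No 0 h library reached any 2 h library of the same antibody. The log2 fold change was 0.53 with P23 (SE 0.16, edgeR adjusted p = 0.013) and 0.61 with LUC (SE 0.19, edgeR adjusted p = 0.018). The call in the P23 IPs was lost at a log2 value of 0.47 without P23 0 h replicate 2 (edgeR adjusted p = 0.068) or replicate 3 (edgeR adjusted p = 0.070, the highest over 13 alternatives, the lowest being 1.6e-07). That in the LUC IPs was lost at 0.50 without LUC 2 h replicate 2 (edgeR adjusted p = 0.18, the highest over 12 alternatives, the lowest being 0.00010) and at 0.61 with the LUC groups alone in the fit (edgeR adjusted p = 0.059).

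The mitochondrial mRNA fell with LPS in the P23 IPs. There mt-Nd4 had 432, 482 and 588 normalized counts at 2 h against 1180.5, 603 and 632 at 0 h, and every 2 h value was below every 0 h value. The log2 fold change was -0.68 (SE 0.25, edgeR adjusted p = 0.036). Without P23 0 h replicate 1, the library that stood apart, it was -0.30 (edgeR adjusted p = 0.28, the highest over 13 alternatives, the lowest being 0.0030), without P23 2 h replicate 1 it was -0.59 (edgeR adjusted p = 0.13), and without P23 2 h replicate 2 it was -0.65 (edgeR adjusted p = 0.091). In limma it was -0.62 (adjusted p = 0.064). In the LUC IPs mt-Nd4 had 307 and 318 normalized counts at 2 h against 675, 374 and 529.9 at 0 h, again with no overlap. The log2 fold change of -0.74 (SE 0.30, edgeR adjusted p = 0.075) did not pass, whereas in DESeq2 it did at -0.75 (adjusted p = 0.035). It also passed at -0.94 without LUC 0 h replicate 2 (edgeR adjusted p = 0.020), and over 12 alternatives its adjusted p ran from 0.0072 to 0.23.

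Ciao2a and Bola3 were not called in either antibody. Ciao2a had 417, 494 and 461 normalized counts in the P23 IPs at 2 h against 436, 346 and 353 at 0 h, a log2 fold change of 0.28 (SE 0.17, edgeR adjusted p = 0.19). In the LUC IPs it had 342 and 383 at 2 h against 358, 233 and 272 at 0 h, a log2 fold change of 0.35 (SE 0.20, edgeR adjusted p = 0.19). With libraries at an equal median Ciao2a passed with both antibodies, at 0.49 in the P23 IPs and 0.44 in the LUC IPs. Bola3 had 73.3, 107 and 62.7 in the P23 IPs at 2 h against 91.8, 88.6 and 93.3 at 0 h (log2 fold change -0.16, SE 0.18, edgeR adjusted p = 0.45). In the LUC IPs Bola3 had 65.1 and 60.3 at 2 h against 58.6, 44.0 and 57.1 at 0 h (log2 fold change 0.24, SE 0.23, edgeR adjusted p = 0.50). The P23 IPs of Bola3 were nearly equal at 0 h and scattered on both sides of that level at 2 h. Their coefficient of variation was 2.66% at 0 h, less than the 10.9% of counting error alone. At 2 h it was 28.8%, against 13.4% from counting error. With 3 libraries each, no change of spread is read.

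In the P23 IPs 1 member was called higher, against 6 of the 52 RNAs (11.5%), and 1 lower, against 21 (40.4%). For the LUC IPs 1 member was called higher, against 8 of the 52 RNAs (15.4%), and 0 lower, against 6 (11.5%), with 1 member and 12 RNAs lower at an unadjusted p under 0.05. In the LUC IPs DESeq2 called 1 member lower, mt-Nd4, and limma 0. All 2 h libraries were above all 0 h libraries for 1 member and 13.5% of the RNAs in the P23 IPs, and for 2 members and 23.1% in the LUC IPs. They were below for 1 member and 40.4% with P23, and for 1 member and 28.8% with LUC. The median log2 fold change of all 52 RNAs was -0.32 in the P23 IPs and -0.13 in the LUC IPs, against 0.28 with P23 and 0.35 with LUC over the 3 nuclear members. Cisd2 had the 5th highest value of the 52 RNAs with P23 and the 7th with LUC. In the same order mt-Nd4 was 37th with P23 and 45th with LUC. Below 0 were 37 of the 52 RNAs with P23 and 32 with LUC, so a fall was not particular to mt-Nd4. Both comparisons share libraries with those of P23 over LUC.

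The contrast of mt-Nd4 with the nuclear members was also taken within each library. It was the count of mt-Nd4 over the summed counts of Bola3, Ciao2a and Cisd2, which needs no scale between libraries. On the log2 scale this ratio was -1.38, -1.46 and -1.07 in the P23 IPs of 2 h against 0.12, -0.53 and -0.48 at 0 h. In the LUC IPs it was -1.53 and -1.66 at 2 h against -0.15, -0.66 and -0.41 at 0 h. Every 2 h library was below every 0 h library, whichever the antibody. The mean log2 difference of 2 h and 0 h within antibody was -1.10 (exact two-sided permutation test of LPS labels within antibody, p = 0.0050, the smallest that 200 arrangements can give, 0.010 after Benjamini-Hochberg adjustment over 2 comparisons). It was -1.0 in the P23 IPs and -1.19 in the LUC IPs, and stayed between -1.16 and -0.99 when each library was left out in turn (exact p between 0.010 and 0.017). Over each nuclear mRNA alone the mean difference was -1.24 against Cisd2, -0.98 against Ciao2a and -0.69 against Bola3 (exact p up to 0.045). Against Bola3 alone the P23 groups overlapped, at 2.16 to 3.23 at 2 h and 2.76 to 3.68 at 0 h. The LUC groups did not, at 2.24 to 2.40 at 2 h and 3.09 to 3.53 at 0 h. The ratio sets mt-Nd4 against these mRNAs only and not against nuclear mRNA in general. With LPS in the P23 IPs Cisd2 ranked 5th and Ciao2a 7th from the highest, while 37 of the 52 RNAs lay below 0.

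The antibody made a smaller difference to this ratio. It was higher with P23 than with LUC by a mean log2 value of 0.20 within time point, 0.29 at 2 h and 0.11 at 0 h (exact two-sided permutation test of antibody labels within time point, p = 0.215, and the same after adjustment over the 2 comparisons). At 0 h the groups overlapped, and at 2 h all P23 libraries were above both LUC libraries. Bulk libraries do not tell fewer cells from less RNA per cell, nor, in an IP, less RNA bound from less RNA present.

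**Figure D3:**
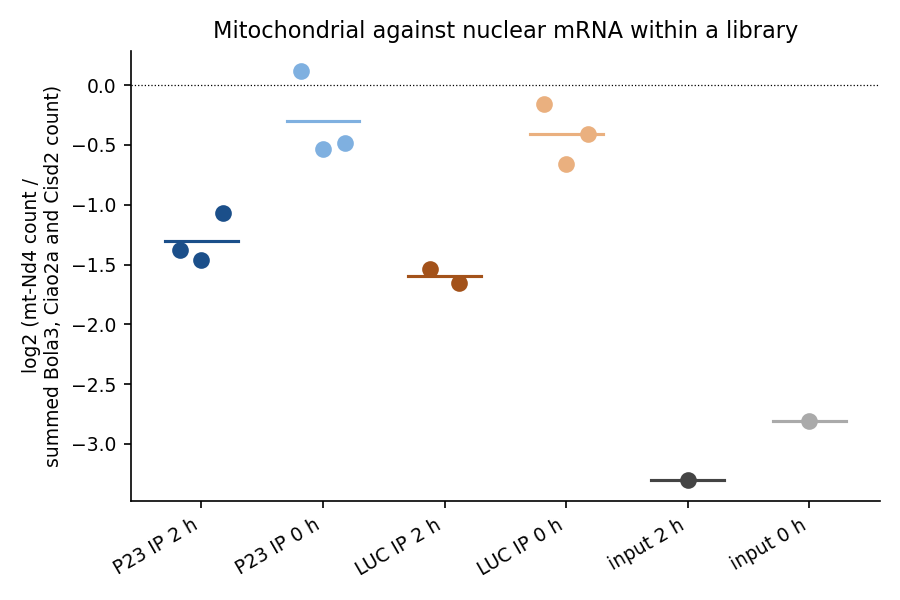
Log2 of the mt-Nd4 count over the summed count of Bola3, Ciao2a and Cisd2 in each of the 13 libraries, with a line at the group mean. The 2 h libraries lie below the 0 h libraries with both antibodies, between -1.66 and -1.07 against -0.66 and 0.12, and the inputs lie lowest at -3.30 at 2 h and -2.81 at 0 h.

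The inputs allow no test across replicates, with 1 library at each time, and their intervals cover counting error only, with PCR copies of a molecule counted as separate reads. For mt-Nd4 the inputs held 316 reads at 2 h and 435 at 0 h, or 55.9 and 71.3 normalized counts. Its log2 ratio was -0.35 (exact Clopper-Pearson 95% interval -0.56 to -0.14). Ciao2a had 348 normalized counts at 2 h and 300.3 at 0 h, a log2 ratio of 0.21 (0.12 to 0.31). For Bola3 (109 at 2 h and 108 at 0 h, log2 ratio 0.01, -0.15 to 0.17) and Cisd2 (95.2 at 2 h and 91.6 at 0 h, log2 ratio 0.06, -0.12 to 0.23) the interval included 0. Thus mt-Nd4 was lower at 2 h in the inputs as it was in both IPs, while the input ratio of Cisd2 was smaller than its fold change in either IP. The ratio of mt-Nd4 to the nuclear members had a log2 value of -0.50 for the 2 h input over the 0 h input (exact conditional 95% interval of the odds ratio -0.72 to -0.27).

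Relative to input, the members spread over nearly the whole range of the table. The mitochondrial mRNA had the highest mean of the 4, at 8.95 times its input in the P23 IPs and 5.60 times in the LUC IPs of 2 h, and at 11.3 times with P23 and 7.38 times with LUC at 0 h, by mean normalized counts. It had the 4th highest ratio of the RNAs with input reads in all 4 IP groups, 51 RNAs at 2 h and 52 at 0 h. Cisd2 followed at 7.24 times with P23 and 5.48 times with LUC at 2 h, and 5.22 times with P23 and 3.72 times with LUC at 0 h. These first 2 did not separate in the LUC IPs of 2 h, since the log2 range of Cisd2 (2.34 to 2.56) enclosed that of mt-Nd4 (2.46 to 2.51). Ciao2a stayed near its input, at 1.31 times with P23 and 1.04 times with LUC at 2 h, and 1.26 times with P23 and 0.958 times with LUC at 0 h.

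Bola3 was at 0.745 times its input with P23 and 0.575 times with LUC at 2 h, and at 0.845 times with P23 and 0.493 times with LUC at 0 h. It was the lowest of the 52 RNAs in the P23 IPs of 0 h and the 50th in the other 3 groups. By group means the order of the members was the same in all 4 groups, with Bola3 last. In the LUC IPs of 2 h mt-Nd4 and Cisd2 lay within their spread. The median log2 ratio to input over the table was 0.89 with P23 and 0.50 with LUC at 2 h, and 1.36 with P23 and 0.61 with LUC at 0 h. These levels rest on the size factors of the inputs, which are several times those of the IPs. With an equal median in all libraries Ciao2a fell below its input in all 4 groups, while mt-Nd4 and Cisd2 stayed above and Bola3 below.

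**Figure D4:**
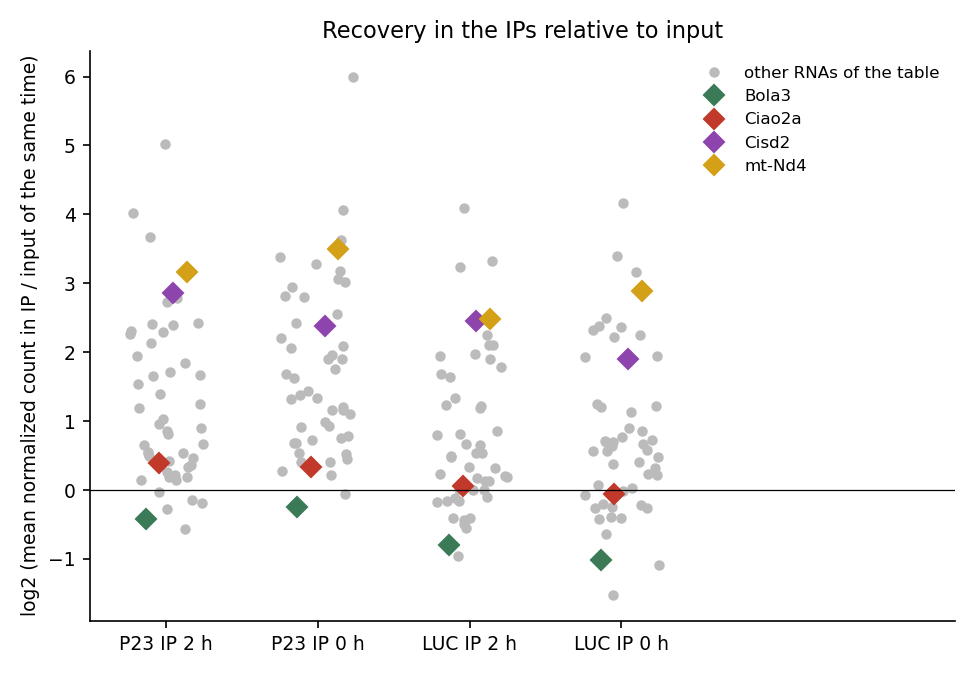
Log2 of the mean normalized count in each IP group over the input of the same time, with the 4 members as coloured diamonds and the other RNAs of the table as grey points. In all 4 groups mt-Nd4 and Cisd2 are in the upper part, Ciao2a is near 0 and Bola3 is near the bottom.

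Ratios between members within a library, free of any scale, show the same separation. Cisd2 over Bola3 was at a log2 value between 2.76 and 3.50 in the P23 IPs and between 2.89 and 3.22 in the LUC IPs of 2 h. At 0 h it was between 2.23 and 2.61 with P23 and between 2.51 and 2.84 with LUC. In the inputs it was -0.20 at 2 h and -0.24 at 0 h, so no IP library came near an input. Cisd2 over Ciao2a was between 0.56 and 0.62 with P23 and 0.50 and 0.55 with LUC at 2 h, and between 0.31 and 0.36 with P23 and -0.10 and 0.45 with LUC at 0 h, against -1.87 in the 2 h input and -1.71 in the 0 h input. The ratio of mt-Nd4 to the nuclear members exceeded that of the input of the same time by a mean of 4.0-fold in the P23 IPs and 3.27-fold in the LUC IPs of 2 h, and by 5.70-fold with P23 and 5.29-fold with LUC at 0 h.

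Levels of different genes were compared per kilobase of RefSeq mRNA. In the P23 IPs of 2 h Ciao2a averaged 365 ± 31 and mt-Nd4 363 ± 58 normalized counts per kilobase (SD, n = 3 each), Cisd2 240.3 ± 17.4 and Bola3 35.6 ± 10.3 (SD, n = 3 each). Ciao2a and mt-Nd4 did not differ beyond their spread there, since Ciao2a was the higher in 2 of the 3 libraries. In the LUC IPs of 2 h the order was Ciao2a (289 ± 23), mt-Nd4 (227 ± 5.6), Cisd2 (182 ± 19) and Bola3 (27.5 ± 1.5, SD, n = 2 each), with no overlap between neighbours. At 0 h mt-Nd4 was first in all libraries, at 584 ± 236 with P23 and 382 ± 109 with LUC, ahead of Ciao2a at 302 ± 40 with P23 and 229.7 ± 51.2 with LUC (SD over 3 libraries). The ranges of mt-Nd4 and Ciao2a overlapped in the LUC IPs of 0 h. Cisd2 followed at 167 ± 25 with P23 and 119 ± 10.4 with LUC, and Bola3 last at 40.0 ± 1.1 with P23 and 23.3 ± 3.5 with LUC (SD over 3 libraries). In the inputs the order was another, with Ciao2a first at 278 per kilobase at 2 h and 239.6 at 0 h. The other 3 were low there, mt-Nd4 at 40.6 at 2 h and 51.7 at 0 h, Bola3 at 47.8 at 2 h and 47.3 at 0 h, and Cisd2 at 33.2 at 2 h and 31.9 at 0 h. Since 63.6% of mt-Nd4 has an identical copy on chromosome 1, its level per kilobase may be too low in every library, and its place below or level with Ciao2a in the IPs of 2 h and below Bola3 in the 2 h input may come from that. The level of Ciao2a may likewise be affected by its 30 near copies on 13 chromosomes. Whether either of them changes the order was not tested. If all annotated exons of Cisd2 were used as its length, its level would be 89.9 in the P23 IPs of 2 h, still above Bola3 at 25.3.

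Over the 11 IP libraries, which share antibody and LPS groups, the variance-stabilized values of Ciao2a and Cisd2 ran closely together (Pearson r = 0.88), and those of Cisd2 and mt-Nd4 did not (r = 0.02). The other pairs of members had r of 0.67 for Bola3 and Ciao2a, 0.54 for Bola3 and Cisd2, 0.46 for Bola3 and mt-Nd4 and 0.30 for Ciao2a and mt-Nd4. The 3 RNAs whose values were most like those of mt-Nd4 were Nudt3 (r = 0.98), Prr5 (0.91) and Isoc2a (0.90). For Cisd2 they were Cldnd1 (0.95), Smim10l1 (0.91) and Ciao2a, for Ciao2a Ptges3 (0.94), Fhl3 (0.92) and Cisd2, and for Bola3 Paf1 (0.88), Msi2 (0.83) and Smim14 (0.83). The median r with the other 51 RNAs was 0.66 for Bola3, 0.48 for Ciao2a, 0.31 for Cisd2 and 0.66 for mt-Nd4. The points are library values with shared size factors, and these r are a description.

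The iron-sulfur list used here has 32 genes, of cluster assembly and of the CISD iron-sulfur proteins, which are not assembly factors. The table holds 3 of them, which are the nuclear members themselves, and of 13 mitochondrially encoded mRNAs it holds mt-Nd4 alone. Slc25a44, a nuclear gene for a carrier of the inner mitochondrial membrane that takes up branched-chain amino acids, is set beside them, and no wider list of mitochondrial proteins was searched. Slc25a44 had 68.5, 81.6 and 77.3 normalized counts in the P23 IPs of 2 h and 81.4 and 70.1 in the LUC IPs of 2 h, with no separation by antibody. At 0 h it had 171.5, 106.7 and 124.7 in the P23 IPs and 115.1, 90.6 and 87.3 in the LUC IPs. It fell with LPS in the P23 IPs (log2 fold change -0.81, SE 0.18, edgeR adjusted p = 0.0015) and was at -0.35 in the LUC IPs (edgeR adjusted p = 0.24). In the inputs its log2 ratio of 2 h to 0 h was -0.57 (exact 95% interval -0.79 to -0.36). Its values with LPS lay below 0 as those of mt-Nd4 did, but so did 37 of the 52 RNAs with P23 and 32 with LUC. Ciao2a and Cisd2 lay above 0 with both antibodies. Bola3 was at -0.16 with P23 and 0.24 with LUC. No pattern shared by mitochondrial genes is read from this.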

How the data were processed

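RNA of RAW 264.7 macrophages was sequenced after IP with P23 or LUC antibody and from input. The authors trimmed reads with Trimmomatic 0.33, checked them with FastQC 0.11.2, mapped them with TopHat2 2.0.14 to GRCm38 and counted unique reads with HTSeq 0.6.1 irrespective of strand. The raw counts deposited cover 52 RNAs that the study selected at 0 h. The deposited log2 values are variance-stabilized counts, and the size factor of each library was recovered from them here to within 1e-12. The edgeR fold changes, p-values and FDR in the table were not used. All libraries were mapped by column name, with 0 sample columns unmapped.

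Counts were tested with edgeR 4.0.16 in R 4.3.3 (4 group means, 11 IP libraries, p-values adjusted by Benjamini-Hochberg over 52 RNAs, called at 0.05). The methods call the replicates independent. DESeq2 1.42.0, limma 3.58.1 on the log2 values, other scales, dropping RNAs under a mean normalized count of 20, a replicate block and leaving out libraries were alternatives, and the fit was tested on simulated data. Permutation tests were exact, intervals at 95%. Similar stretches were searched with blastn 2.17.0 (100 nt, 90% identity), and RefSeq 3′UTRs of 36 nt or more were scanned for U/G hexamers. Genes named are the members, for each the 3 RNAs with the highest Pearson r, Slc25a44, Pim1 and Kif15 and Ptges3 as reference points, and the pathway and marker lists. Some items are not reported here. Members and lists were chosen with earlier results of these data known.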

Additional observations from a re-analysis of the deposited data

How the results depend on the processing

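The table holds only RNAs selected at 0 h, so a scale set on the table itself removes whatever most of them share, and this was the alternative with the widest effect. With all libraries at an equal median, 3 RNAs were called higher with P23 at 0 h and 2 at 2 h, and 10 rose with LPS in the P23 IPs. The P23 over LUC log2 values at 0 h became 0.23 for Bola3, -0.13 for Ciao2a, -0.079 for Cisd2 and 0.080 for mt-Nd4, and at 2 h -0.031 for Bola3, -0.077 for Ciao2a, -0.010 for Cisd2 and 0.27 for mt-Nd4. The change between times was 0.049 for Ciao2a and 0.069 for Cisd2. With LPS, Bola3 was at 0.035 in the P23 IPs, Ciao2a at 0.49 in the P23 IPs and 0.44 in the LUC IPs, and mt-Nd4 at -0.63 in the LUC IPs. TMM over the table called 2 RNAs higher with P23 at 0 h, 2 at 2 h and 14 with LPS in the P23 IPs. It gave P23 over LUC values at 0 h of 0.13 for Bola3, -0.24 for Ciao2a, -0.19 for Cisd2 and -0.041 for mt-Nd4, and at 2 h of -0.085 for Bola3, -0.13 for Ciao2a, -0.066 for Cisd2 and 0.21 for mt-Nd4. Its change between times was 0.11 for Ciao2a and 0.13 for Cisd2, and its LPS values were 0.14 for Bola3 and 0.60 for Ciao2a in the P23 IPs, and 0.49 for Ciao2a and -0.59 for mt-Nd4 in the LUC IPs.

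Relative to input, the mean log2 value at an equal median in the 2 h groups was -1.33 with P23 and -1.26 with LUC for Bola3, -0.48 with P23 and -0.41 with LUC for Ciao2a, 1.99 with either antibody for Cisd2, and 2.28 with P23 and 2.02 with LUC for mt-Nd4. In the 0 h groups it was -1.25 with P23 and -1.50 with LUC for Bola3, -0.68 with P23 and -0.55 with LUC for Ciao2a, 1.37 with P23 and 1.42 with LUC for Cisd2, and 2.42 with P23 and 2.37 with LUC for mt-Nd4.

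DESeq2 called 10 RNAs higher with P23 at 2 h and mt-Nd4 lower with LPS in the LUC IPs at -0.75. In limma mt-Nd4 was at -0.62 with LPS in the P23 IPs. With the 2 groups compared alone in the fit, 13 RNAs were called higher with P23 at 2 h, mt-Nd4 passed there at 0.68 and with LPS in the LUC IPs at -0.74, and Ciao2a at 0 h (0.41) and Cisd2 with LPS in the LUC IPs (0.61) did not. The correlation of same-numbered deviations over the RNAs ran from -0.43 to 0.41, which does not settle whether replicate numbers pair the libraries. For mt-Nd4 at 0 h, replicate 1 was the highest and replicate 2 the lowest with both antibodies. With a replicate block, mt-Nd4 had an edgeR adjusted p of 0.0032 for P23 over LUC at 0 h and 0.0030 with LPS in the P23 IPs. A replicate block within time point put the change of mt-Nd4 between times at -0.034, called mt-Nd4 lower with LPS in the LUC IPs at -0.60 (edgeR adjusted p = 0.037), and left 5 RNAs called higher with P23 at 2 h. In the block of same-numbered libraries the ratio of mt-Nd4 to the nuclear members was 0.13 higher with P23. The cause of these changes was not tested.

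Leaving out each library in turn gave 40 to 52 RNAs called higher with P23 at 0 h. At 2 h it gave 2 to 13 higher (13 without P23 2 h replicate 1, and 2 without P23 2 h replicate 2 or 3 or LUC 2 h replicate 1) and 0 to 1 lower. With LPS it gave 3 to 5 higher in the P23 IPs (3 without P23 0 h replicate 2 or 3) and, in the LUC IPs, 5 to 9 higher (5 without LUC 2 h replicate 2) and 1 to 11 lower (1 without LUC 2 h replicate 2, 3 without LUC 2 h replicate 1 and 11 without LUC 0 h replicate 2). Log2 values of P23 over LUC at 0 h lay between 0.28 and 0.58 for Ciao2a, 0.36 and 0.56 for Cisd2, and 0.24 and 0.82 for mt-Nd4. The change between times lay between -0.67 and -0.24 for Bola3, -0.24 and 0.058 for Ciao2a, -0.19 and 0.044 for Cisd2, and -0.15 and 0.43 for mt-Nd4. With LPS, Cisd2 lay between 0.47 and 0.66 in the P23 IPs and 0.50 and 0.72 in the LUC IPs, and mt-Nd4 between -0.85 and -0.30 in the P23 IPs and -0.94 and -0.53 in the LUC IPs. Of 233 comparisons of a result with an alternative other than these, 175 were alike. For a tested value this meant the same direction and side of the threshold, and for a number of RNAs called a similar number. Where there was no test it meant a value within the spread. The depth of the IPs limits Bola3 most, with 27 to 95 reads a library.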
